A study of Rattus norvegicus with 6 samples.

Results

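Promoter tiles were examined in which the signal of immunoprecipitated DNA differed between cadmium-exposed and control offspring while the signal of input DNA did not. Methylated DNA of ovarian granulosa cells from female Sprague Dawley rats was captured and hybridised together with input DNA of the same sample to a promoter tiling array. Dams of the control group (0 mg/kg) had received water and dams of the cadmium group cadmium chloride (8 mg/kg body weight), each by gavage from gestation day 1 to 21. Offspring were sampled at postnatal day 56, with 3 arrays per group that the labels call biological replicates. The number of animals and litters behind each array was not stated in the labels. A tile was a run of neighbouring probes. Members were chosen by their measured group differences, cadmium minus control: a member had a difference of at least 0.2 (log2) in size in the immunoprecipitated (IP) signal and of at most 0.1 in the input signal. This rule found 314 tiles on chromosomes 1 to 20, 164 higher (1.12% of autosomal tiles) and 150 lower (1.03%) in cadmium offspring. Together they are 2.15% of the 14617 autosomal tiles, and 15231 tiles were measured in all.

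Granulosa cells surround the oocyte, respond to follicle-stimulating hormone and convert androgens to oestradiol. In vertebrate DNA, methyl groups sit mainly on the cytosine of CpG dinucleotides, and methylation of CpG-dense promoters usually goes with silencing of the gene. An antibody against methylated cytosine pulls down fragments with many methylated CpGs, so the IP signal at a promoter depends on CpG density as well as on methylation. The input channel, made from the same DNA before capture, carries the effects of copy number, probe sequence and labelling. A tile that moves in the IP channel with a flat input is therefore the pattern usually looked for in such an experiment. The DNA comes from many cells, so a small difference in all cells and a large one in few of them cannot be told apart. Tiles are named here by their position in the rat build rn4, because genes and sequences of that build were not used here. For the same reason the labelled cell type was not checked against marker genes.

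All values below are tile means of log2 signals, with each array's median set to 0 in each channel. The rule uses the group differences of both channels, so the members' own differences describe how they were chosen, and no test of them is given. An IP difference of 0.2 is 1.15-fold. Across all 15231 tiles, 0 (0%) passed a test of the IP signal between groups (limma, adjusted p under 0.05), and 283 (1.86%) had an unadjusted p under 0.05. Since separate animals are not stated, such p-values capture only array-to-array spread, which may be technical. The IP difference was at least 0.2 in size in 848 autosomal tiles (5.8%). Of the 402 that were higher in cadmium offspring, input was flat in 164, rose with the IP signal by over 0.1 in 165 and moved against it in 73. Of the 446 that were lower, input was flat in 150, moved down as well in 279 and moved up in 17. The mirror pattern, an input difference of at least 0.2 with an IP difference of at most 0.1, was found in 1626 autosomal tiles.

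**Figure D1:**
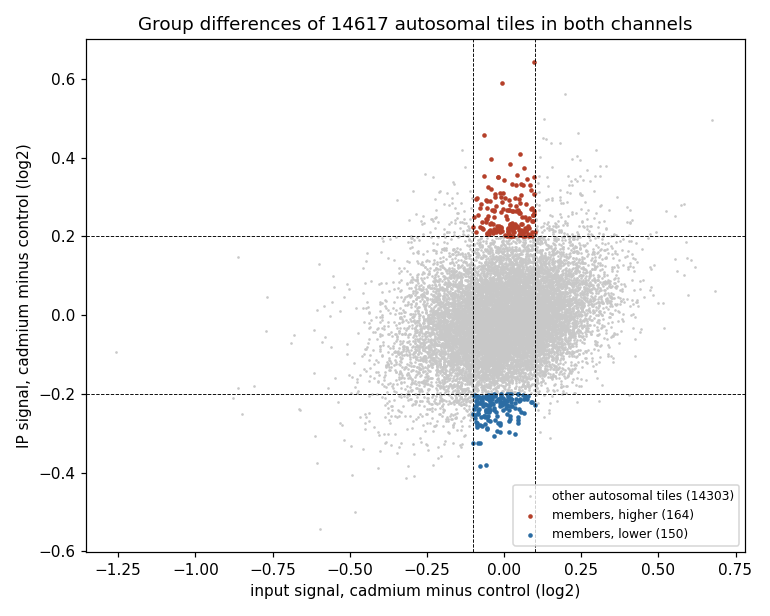
Each point is 1 autosomal tile, with the cadmium minus control difference of the input signal on the x axis and of the IP signal on the y axis (both log2, means of 3 arrays per group). Dashed lines mark the rule, red points are the 164 higher and blue points the 150 lower members, and most members lie close to the line they had to pass.

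Most members lay just past the threshold. The IP difference was under 0.25 in size in 92 of the 164 higher and in 107 of the 150 lower members, and at least 0.3 in 27 and 7 of them. Its median was 0.24 (1.18-fold) for the higher and -0.23 (1.17-fold) for the lower members, against -0.013 over all autosomal tiles. The largest were 0.64 and -0.38. The higher members nearest to the IP threshold had 0.2001 each, on chromosome 10 from 15908542 to 15910227 and on chromosome 4 from 13470578 to 13472292, and the tiles nearest below it had 0.1995 and 0.1986. The lower members nearest to it had -0.2004 and -0.2005, and the tiles left out had -0.1995 each. At the input threshold, higher members with -0.0989 and 0.0989 were kept and tiles with 0.1001 and -0.1002 were not. Lower members with 0.0999 and -0.0992 were kept, and tiles with 0.101 and just past -0.1 were not. The values on both sides of each threshold thus differed by little.

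Cadmium replicate 2 stood apart from the other arrays before any comparison of groups. Its tile means correlated across tiles at r = 0.9449 to 0.9555 with the other arrays in the IP signal and at 0.7401 to 0.8558 in the input signal, against 0.9708 to 0.9925 and 0.9454 to 0.9856 among the other 5. Tiles share the array and are not replicates, so these r values only describe the arrays. The standard deviation of its IP-to-input ratio over autosomal tiles was 0.602, against 0.896 to 0.975. The IP spots of kept probes were a median of 30.4 times as bright as their local background on this array and 9.44 to 17.2 times on the others. It was also scanned alone, while control replicates 1 and 2 were scanned with cadmium replicate 1 (the first shared scan) and control replicate 3 with cadmium replicate 3 (the second shared scan).

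The members' IP signal moved most on that array. Among the 164 higher members, the median IP level was -1.04, -1.02 and -0.87 in control replicates 1, 2 and 3 and -0.94, -0.47 and -0.71 in cadmium replicates 1, 2 and 3. Cadmium replicate 1 thus lay among the control arrays, and replicate 2 far above them. Measured from each tile's own control mean, the median shift was 0.45 in cadmium replicate 2, 0.26 in replicate 3 and 0.03 in replicate 1. Among the 150 lower members, the median IP level was 0.85, 0.79 and 0.74 in control replicates 1, 2 and 3 and 0.73, 0.27 and 0.57 in cadmium replicates 1, 2 and 3. The shifts were -0.45 in cadmium replicate 2, -0.19 in replicate 3 and -0.04 in replicate 1, so the order of the arrays was the same in both directions. Cadmium replicate 2 was the highest of the 6 arrays in 128 of the 164 higher members (78%) and the lowest in 134 of the 150 lower members (89.3%). Over all autosomal tiles it was the highest in 23.4% and the lowest in 35.2%. It lay beyond all 3 control arrays in 154 higher and 149 lower members. Cadmium replicate 3 did so in 131 and 117, and cadmium replicate 1 in 41 and 59. The rule used these same arrays, so the counts are no separate evidence. The same shares over all autosomal tiles were not computed.

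**Figure D2:**
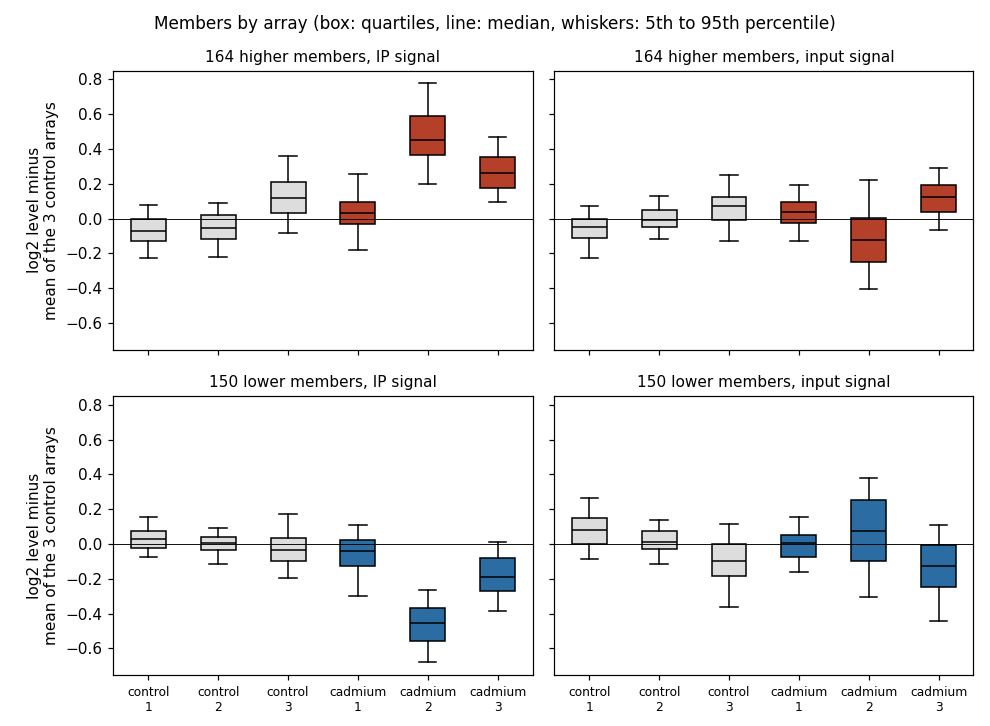
Boxes show, for each array, the log2 level of the members minus each tile's mean over the 3 control arrays, in the IP signal (left) and the input signal (right), for the 164 higher (top) and 150 lower members (bottom). Boxes are quartiles, lines medians and whiskers the percentiles 5 and 95; the IP boxes of cadmium replicate 2 sit farthest from 0, at medians of 0.45 and -0.45.

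All arrays of one group lay beyond all arrays of the other in 33 higher members (20.1%) and in 39 lower members (26%). Over all autosomal tiles such a separation was seen in 430 tiles upward (2.94%) and in 584 tiles downward (4%). The rule chose the members on the same contrast, so these shares are no separate evidence. In the remaining members the groups overlapped. The spread among the cadmium arrays was wider than among the controls. The median standard deviation of the IP signal was 0.23 in cadmium and 0.14 in control for the higher members, and 0.23 and 0.0756 for the lower ones, against 0.13 and 0.0815 over all autosomal tiles (n = 3 each).

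Without cadmium replicate 2 the differences shrank. The median IP difference was then 0.14 for the higher and -0.12 for the lower members. The sign was kept in 158 of 164 and 142 of 150, but the arrays left had also entered the rule, so this was largely built in. At least 0.2 in size remained in 42 higher and 16 lower members. The median input difference moved to 0.081 and -0.073, in the direction of the IP difference. An input difference of at most 0.1 in size was then held by 93 higher and 89 lower members, and 19 higher and 8 lower members still met the whole rule. The input of cadmium replicate 2 lay on the other side, at a median of -0.12 from the control mean in the higher and 0.078 in the lower members. In the higher members, the flat input mean of the cadmium group was therefore an average of arrays on both sides of the control mean. Cadmium replicate 3 lay at 0.12 from it. Cadmium replicate 1, at 0.035, lay within the range of the control arrays, with control replicate 3 at 0.069. In the lower members cadmium replicate 3 lay at -0.13 and replicate 1 at 0.004.

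**Figure D3:**
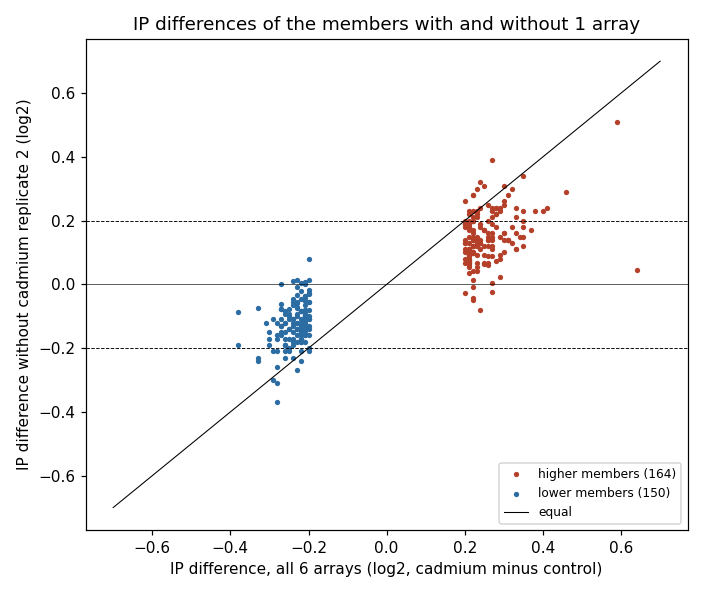
Each point is 1 of the 314 members, with its IP difference (log2, cadmium minus control) over all 6 arrays on the x axis and without cadmium replicate 2 on the y axis. Points nearer to 0 than the solid line lost size when the array was left out, and 42 red and 16 blue points stay past the dashed lines at 0.2 and -0.2.

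Within scans that held both groups, the median differences had the same sign but were smaller. The median IP difference of the higher members was 0.084 in the first shared scan and 0.13 in the second, and that of the lower members -0.055 and -0.15. Both scans gave the direction of the member in 117 of 164 higher and 98 of 150 lower members, and both gave the opposite one in 3 and 2. A difference of at least 0.2 in each scan was seen in 6 higher and 7 lower members. The rule used these same arrays, so such agreement is no separate evidence. The shares over all autosomal tiles were not computed. The IP-to-input ratio, the usual readout of this assay, differed by a median of 0.24 in the higher and -0.21 in the lower members over all arrays. In the first shared scan these medians were 0.018 and -0.005, and in the second 0.091 and -0.095. Without cadmium replicate 2 they were 0.073 and -0.044.

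Higher and lower members came from opposite ends of the IP signal. The mean IP level over 6 arrays was below the array median in 145 of 164 higher members (88.4%) and in 37 of 150 lower members (24.7%), against 45.2% of all autosomal tiles. Of the 330 tiles with a mean IP level under -1.5, 21 (6.36%) were higher members and 2 (0.606%) lower ones. Of the 454 tiles at 1.5 or above, 0 were higher members and 16 (3.52%) lower ones. Tiles at these levels differed between groups in general. The median IP difference over all tiles was 0.052 in the dim class and -0.088 in the bright class, and 0.026 and -0.021 without cadmium replicate 2. With every array given the same spread in each channel, 136 tiles met the rule upward and 119 downward. Of these, 98 and 90 were among the 164 higher and 150 lower members.

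Probe length, which the rule did not use, differed along with the level. On tiling arrays of this kind, probes in AT-rich sequence are often made longer to even out their melting temperature. The mean probe length had a median of 49.7 bases in the higher members and 46 in the lower ones, against 46.8 over all autosomal tiles. It was at least 50 bases in 79 of the higher members (48.2%), in 10 of the lower members (6.67%) and in 13.4% of all tiles. Among tiles with probes of 45 to under 46 bases, 0.191% were higher and 1.57% lower members. Among those of 52 bases and more, 4.65% were higher and 0.465% lower members. The median IP level was 0.53 in the first and -0.95 in the second of these classes, so length and level went together. Shares by length among tiles of like level were not computed. In the input signal the sets differed less from all tiles, with control medians of 0.17 for the higher and -0.15 for the lower members, against 0.0359.

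**Figure D4:**
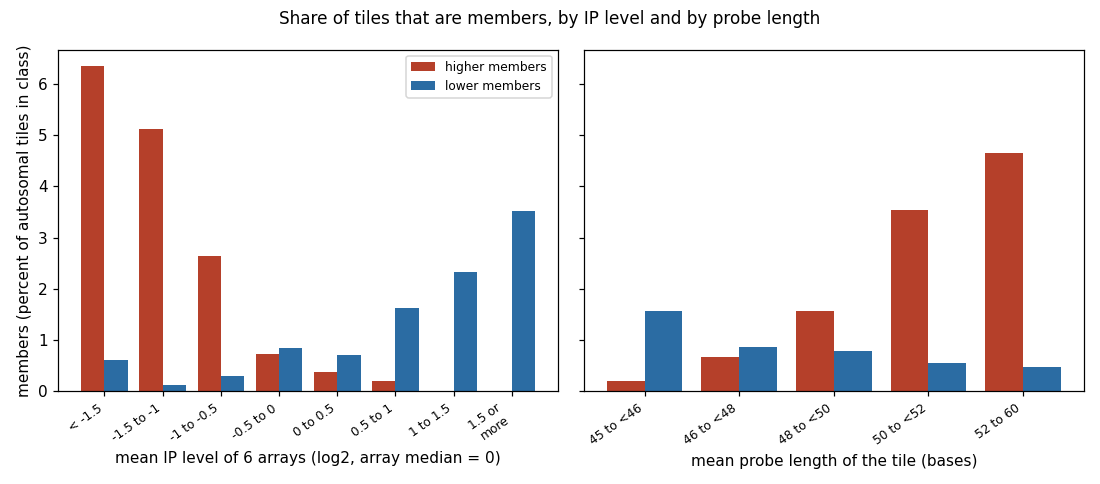
Bars give the percent of autosomal tiles in each class that were higher (red) or lower (blue) members, by the mean IP level of 6 arrays (left, log2 with the array median at 0) and by the mean probe length of the tile (right, bases). The share of higher members is 6.36% in the dimmest class and 0 in the brightest, and 4.65% among the longest probes against 0.191% among the shortest.

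Members rested on few probes. A higher member had a median of 5 kept probes and a lower one 6, against 6 over all autosomal tiles, and 34 higher (20.7%) and 20 lower members (13.3%) had only 3, against 6.81% of all tiles. A median of 57.1% and 63.6% of their designed probes were well above background in both channels on all arrays, against 70%. The probes of a tile mostly moved together in the IP signal. Of the 832 kept probes in higher members, 686 (82.5%) were higher in cadmium offspring, and of the 865 in lower members, 741 (85.7%) were lower. All kept probes moved in the direction of the tile in 62 higher (37.8%) and 59 lower members (39.3%), against 5.79% of all autosomal tiles. The choice of the members favours such agreement, and over all autosomal tiles 62.4% of probes had the sign of their tile.

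The largest probe of each member was also left out. The probe with the largest difference in a member had a median of 0.6 in higher and -0.5 in lower members. Without it the tile mean fell to a median of 0.16 and -0.17, and 41 higher and 31 lower members kept an IP difference of at least 0.2 in size. The whole rule was then met by 29 higher and 25 lower members. Since this probe was picked for its size and most members lay near the threshold, a loss was built in, and other tiles were not treated in the same way.

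The input was flat as a tile mean but not probe by probe. Of the kept probes in members, 24.8% had an input difference of at most 0.1 in size, much as over all autosomal tiles (24.2%), and 30.4% had one of at least 0.3 (35.3% over all). The probe with the largest IP difference had an input difference of at least 0.2 in the same direction in 71 of 164 higher members, and one of at least 0.2 against it in 17. Among lower members the counts were 85 of 150 and 3. The median input difference of these probes was 0.15 in higher and -0.23 in lower members, and that of the other probes of the same tiles was -0.047 and 0.025. IP and input differences correlated at r = 0.43 across the probes of the higher and at 0.59 across those of the lower members, and at 0.42 across the kept probes of all autosomal tiles. These are descriptions, since both channels of a spot share its position and its array.

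Probes that had failed the background filter did not enter the tile values and are described separately. Of the 631 such probes in higher members, 444 (70.4%) were higher in cadmium offspring, and their median difference was 0.165. Of the 482 in lower members, 161 (33.4%) were lower, and their median difference was 0.119, against the direction of the tile. Over all autosomal tiles 67.4% of such probes were higher in cadmium offspring, with a median of 0.134. The left-out probes of both kinds of member therefore lay near the left-out probes of all tiles. Most of them, 482 in higher and 301 in lower members, were above background in the input on all arrays but not in the IP signal.

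The member kept under the most alternative settings lay on chromosome 8 from 16256609 to 16258322, and was singled out after its values were seen. Its IP level was -1.21, -1.08 and -1.24 in control replicates 1, 2 and 3, and -0.5, -0.44 and -0.82 in cadmium replicates 1, 2 and 3. All cadmium arrays lay above all controls, including replicate 1, which in most higher members did not. The control mean was -1.18 ± 0.088 and the cadmium mean -0.59 ± 0.21 (SD over 3 arrays each), which is 0.59 or 1.5-fold apart. The difference was 0.51 without cadmium replicate 2, 0.64 in the first shared scan and 0.42 in the second. Its input level was 0.23, 0.28 and 0.33 in control and 0.35, 0.14 and 0.32 in cadmium offspring, so the groups overlapped there. The tile met the rule in 17 of 19 alternatives, and did not with at least 5 probes per tile, since it had 3 kept probes, and with medians of probes. Those probes, at its lower-numbered end, differed by 0.75, 0.53 and 0.48 in IP and by -0.11, 0.055 and 0.037 in input. Its 6 other probes were not well above background in both channels on all arrays and give no reading of the tile.

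By the size of the IP difference, the first of the higher members with at least 4 kept probes lay on chromosome 1 from 69972432 to 69974228. Its IP level was -1.84, -1.87 and -1.49 in control and -1.82, 0.1 and -1.55 in cadmium offspring, so cadmium replicate 2 alone made the difference of 0.64. Without that array the difference was 0.046, and it was 0.031 and -0.06 in the shared scans. A single probe of that tile, from 69972785 to 69972830, differed by 2.65 in IP and by 1.82 in input. The next on this list overlapped as well. On chromosome 4 from 86800695 to 86802347 the IP level was -1.51, -1.44 and -1.08 in control and -1.33, -0.63 and -1 in cadmium offspring, with 5 of 5 probes upward. On chromosome 14 from 79586283 to 79587795 it was -2.12, -1.93 and -1.63 against -1.9, -1.08 and -1.66. On chromosome 3 from 2274225 to 2275780 it was -2.07, -2.37 and -1.93 against -2.21, -1.36 and -1.74. In each of these 3 tiles the difference was 0.35, and it was 0.18, 0.12 and 0.15 without cadmium replicate 2. All 4 tiles were dim in the IP channel on the control arrays.

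Higher members with at least 5 kept probes, groups that did not overlap and a difference of at least 0.2 also without cadmium replicate 2 numbered 7, of which the 6 with the largest difference are given. On chromosome 17 from 77080917 to 77082302 the IP level was -1.04, -0.97 and -0.93 in control and -0.92, -0.41 and -0.62 in cadmium offspring. All 5 probes were higher, the difference of 0.33 was 0.28 without the largest probe, and the tile met the rule with any 1 of the 6 arrays left out. Without cadmium replicate 2 its difference was 0.21, and it was 0.082 in the first and 0.31 in the second shared scan. On chromosome 10 from 88488561 to 88490281 the IP level was -0.85, -0.89 and -0.78 in control and -0.64, -0.47 and -0.55 in cadmium offspring. The cadmium arrays lay close together there, and the difference of 0.28 was 0.23 in the first and 0.22 in the second shared scan, with 5 of 5 probes upward. Its input was -0.56, -0.71 and -0.71 against -0.58, -0.69 and -0.55.

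The other tiles of this group were less even among their probes. On chromosome 4 from 166581550 to 166583179 the IP level was -0.9, -0.85 and -0.83 in control and -0.62, -0.49 and -0.58 in cadmium offspring. The groups were well apart at a difference of 0.3, but 1 probe, with 0.98 in IP and 0.95 in input, carried much of it, and 0.13 was left without that probe. Without cadmium replicate 2 its input differed by 0.15, in the same direction. On chromosome 10 from 99858561 to 99860134 the difference was 0.28, with 3 of 5 probes upward, and 0.12 without the largest probe. It was 0.31 in the first but 0.075 in the second shared scan, and the input differed by 0.13 without cadmium replicate 2. In the tile on chromosome 18 from 23682434 to 23684126, cadmium replicate 1 was the highest array at -0.49, and replicates 2 and 3 were at -0.82 and -0.8 against -0.96, -0.88 and -1.02 in control. Its difference of 0.25 was 0.14 without the largest probe. On chromosome 1 from 96527423 to 96529057 it was again cadmium replicate 1 that stood out, at 0.98, with 0.58 and 0.62 in the others and 0.49, 0.47 and 0.53 in control. The difference there was 0.5 in the first and 0.084 in the second shared scan, and 0.13 without the largest probe. That tile was the only one of these 6 with an IP signal above the array median.

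**Figure D5:**
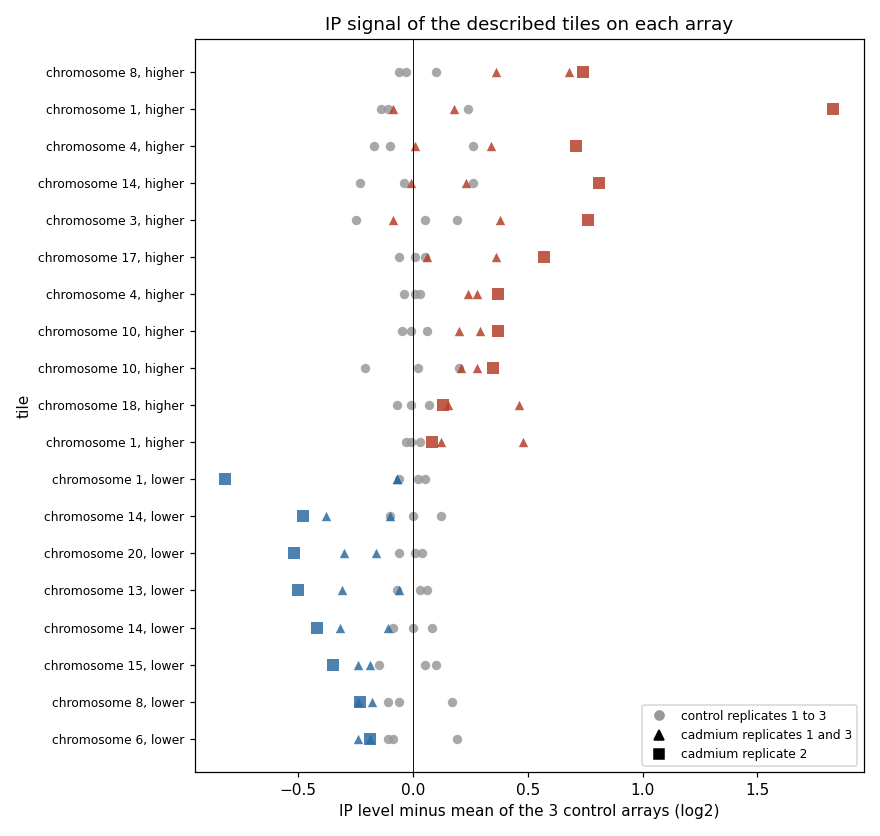
Each row is 1 of the tiles described in the text, named by its chromosome, with the tile on chromosome 8 that met the rule most often at the top, then the other higher and the lower members. Points give the IP level of each array minus the mean of the 3 control arrays (log2); in the tile on chromosome 1 from 69972432, a single cadmium array lies far to the right of the other 5.

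Among the lower members, the tile on chromosome 1 from 15204088 to 15205750 had the largest difference of those with at least 4 kept probes. Its IP level was 1, 1.08 and 1.11 in control and 0.99, 0.24 and 0.99 in cadmium offspring. Cadmium replicate 2 again was the array farthest from the controls, and the difference of -0.33 was -0.075 without it. A tile on chromosome 14 from 35521460 to 35523228 was lower on more arrays, with 1.01, 0.89 and 0.79 in control and 0.79, 0.41 and 0.51 in cadmium offspring. All 7 of its probes were lower and the difference of -0.33 was -0.24 without cadmium replicate 2, but its input then differed by -0.25. On chromosome 20 from 14131067 to 14132721 the IP level was -0.16, -0.19 and -0.26 in control and -0.36, -0.72 and -0.5 in cadmium offspring. The difference was -0.19 in the first and -0.24 in the second shared scan, and the input differed by 0.004 without cadmium replicate 2. In that tile 3 of 4 probes were lower, and the largest differed by -0.66 in IP and -0.69 in input. The tile met the rule in 7 of 19 alternatives, and in 0 of the 4 alternative normalizations. On chromosome 13 from 49388439 to 49390104 the IP level was 0.23, 0.2 and 0.1 in control and 0.11, -0.33 and -0.14 in cadmium offspring. The groups met at 1 array there, and the difference of -0.3 was -0.19 without cadmium replicate 2, with the input at -0.002.

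Lower members with at least 5 kept probes, separate groups and a difference of at least 0.2 in size also without cadmium replicate 2 numbered 5, and the tile on chromosome 14 above is 1 of them. On chromosome 15 from 38739272 to 38740819 the IP level was 1.69, 1.74 and 1.49 in control and 1.45, 1.29 and 1.4 in cadmium offspring, and the tile met the rule under all 4 alternative normalizations. Its input without cadmium replicate 2 differed by -0.28, in the same direction. The IP difference of -0.26 was -0.14 without the largest probe, which differed by -0.83 in IP and -0.53 in input. It was -0.26 in the first and -0.086 in the second shared scan. On chromosome 14 from 38053726 to 38055212 all 7 probes were lower, and the difference was -0.28. Without cadmium replicate 2 it was -0.21, but the input then differed by -0.17. The tile met the rule under 1 of the 4 alternative normalizations. In that tile 1 probe differed by -0.87 in IP and -0.93 in input. On chromosome 8 from 4400830 to 4402608 a probe with -1.01 in IP and -0.82 in input carried the difference of -0.22, of which -0.08 was left without it. On chromosome 6 from 111258701 to 111260344 the 3 cadmium arrays lay between -0.02 and 0.03, and control replicate 3 stood apart at 0.41 from the other controls at 0.13 and 0.11. That difference of -0.2 was -0.09 in the first and -0.43 in the second shared scan.

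Members were spread over all 20 autosomes. Their share of tiles was between 0.665% on chromosome 20 (3 of 451) and 4.29% on chromosome 17 (18 of 420). Chromosome 1 held the most, with 34 higher and 16 lower members among 2097 tiles. Of the 314, 20 (6.37%) had a member as the next tile on the chromosome, at any distance, in 10 pairs. Of these pairs, 6 were both higher, 2 both lower and 2 opposite. The number of pairs to be expected from the members' share of tiles was not computed, so no clustering is read from this count. The gaps ran from 14053 to 1068520 bp. A pair of higher members lay on chromosome 4, 64856 bp apart, and consisted of the tile from 86800695 named above, with 0.35, and one from 86867204 to 86868959, with 0.22. Another pair, on chromosome 16 from 75086206 to 75087782 and from 75101836 to 75103481, was 14053 bp apart, with 0.21 and 0.24. Tiles next to members that were not members themselves had a median IP difference of -0.008 beside higher and -0.024 beside lower members (-0.013 over all autosomal tiles). They had the sign of the member beside them in 143 of 311 (46%) and in 177 of 293 cases (60.4%), near the 44.5% higher and 55.5% lower among all autosomal tiles.

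The deposited value table, which holds log2 values of the same arrays, gave smaller differences in the same direction. The authors' values for the kept probes differed by a median of 0.11 in the higher and -0.084 in the lower members, against 0.002 over all autosomal tiles. The sign was kept in 152 of 164 and 140 of 150 members, and the size was at least 0.2 in 12 and 11. The same arrays had served to choose the members, so this agreement is no separate evidence. By array, the median deposited value of the higher members was -0.58, -0.6 and -0.52 in control and -0.62, -0.26 and -0.49 in cadmium offspring. Cadmium replicate 2 stood apart in that table too. In the lower members it was 0.95, 0.95 and 0.98 in control and 0.9, 0.76 and 0.91 in cadmium offspring. Its scaling and centring are unknown.

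How many tiles met the rule, and in which direction, moved with the scaling. After quantile normalization 159 were higher and 96 lower, after loess 179 and 74, and after normexp background correction 38 and 76, against 164 and 150. With scan batch as a block, which gives cadmium replicate 2 no weight, 62 were higher and 59 lower, and 7 and 11 of these were among the 314. In all 4 alternative normalizations, 13 higher and 19 lower members still met the rule.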

How the data were processed

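Each of 6 arrays carried Cy5-labelled immunoprecipitated DNA and Cy3-labelled input DNA, per the labels' protocols. The deposited signal intensity values were made with Agilent Feature Extraction 11.0.1.1 on a design of build rn4, per the file headers, with the local background subtracted and a linear dye factor applied to each channel. The deposited log2 values of the series, whose column medians were -0.034 to 0.0273, rose with each array's own Cy5 over Cy3 ratio (r = 0.85 to 0.883 over kept probes). The submitters' processing notes name limma. Scaling and centring of those values are not given in the sources used here.

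Of 172669 probes, 112944 were well above background in both channels on all arrays. Log2 signals were centred on the array median, and averaged per tile (starts no more than 1000 bp apart, at least 3 kept probes). Outlier spots were kept. The members, the lists of named tiles and the alternatives were chosen with earlier results of these data known. Tiles were named by the size of the IP difference: 4 per direction with at least 4 probes, and up to 6 with at least 5 probes, separate groups and 0.2 also without cadmium replicate 2, besides those nearest the thresholds. All tiles were fitted with lmFit and eBayes of limma 3.58.1 (R 4.3.3, data.table version 1.17.8), two-sided, with Benjamini-Hochberg adjustment and no covariate; the steps were tested on simulated data. Summaries used Python 3.11.15 with pandas 2.3.3 and numpy 2.4.6. The number of arrays limits the precision. Normexp used median spot and background signals, in place of the planned mean spot signals, with an offset of 50. No probe had identical values in any pair of arrays.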

Additional observations from a re-analysis of the deposited data

How the results depend on the processing

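The counts of members depended on the processing. Against 164 higher and 150 lower members, normexp gave 38 and 76, medians of probes 516 and 594, scan batch as a block 62 and 59, and thresholds of 0.3 and 0.05 gave 13 and 2. Higher members numbered 334 without a filter on dim probes, 423 with the input alone above background and 98 with at least 5 probes per tile. Lower members numbered 96 after quantile normalization and 74 after loess. With 1 array left out there were 78 to 397 higher and 52 to 582 lower members. These were 381 and 276 without control replicate 3, 397 and 582 without cadmium replicate 1, 78 and 52 without cadmium replicate 2, and 194 and 260 without cadmium replicate 3. The other alternatives stayed within 1.5 times of the counts. The replicate block gave 164 and 150, but each number holds 1 array per group. The block therefore cannot change the group differences, and its counts were fixed in advance. Deviations from the group means correlated at 0.39, -0.018 and 0.521 for arrays with the numbers 1, 2 and 3. They correlated at 0.382 for control replicate 2 with cadmium replicate 1, which shared a scan. Arrays of numbers 1 and 3 also shared scans, so for them pairing by number and by scan coincide. The arrays of number 2, at -0.018, were scanned apart. Whether number or scan goes with these values was not tested. With the replicate block 0 tiles passed (limma, 714 at an unadjusted p under 0.05). No tile passed in the IP signal under the other planned settings either (limma, 102 to 1599 at an unadjusted p under 0.05). With scan batch as a random block, added after the data were seen, 2 tiles passed. They were the member on chromosome 8 from 16256609 and a tile of unplaced sequence that was no member. That member was chosen by this same contrast on the same arrays, so its call is no separate evidence. For the 314 fixed members, the median IP difference kept its sign under every alternative run. The members were chosen by this difference on the same arrays, so that sign was largely built in. The median of the lower members was -0.055 in the first shared scan. The cause of these changes was not tested. Signs turned in 2 named tiles, both higher: on chromosome 1 from 69972432 to -0.008 with scan batch as a block and -0.06 in the second shared scan, and on chromosome 14 from 79586283 to -0.024 in the latter. Other named tiles kept their sign but changed in size, in both directions. On chromosome 14 from 38053726 the difference of -0.281 was -0.024 with medians of probes. On chromosome 10 from 99858561 the difference of 0.277 was 0.089 after normexp. On chromosome 4 from 166581550 the difference of 0.296 was 0.853 with medians of probes. The low signal of the IP channel limits the dim tiles, where a median of 57.1% of designed probes could be used in higher members.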

Other observations

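No member met the rule under all 19 alternatives, and the tile on chromosome 8 from 16256609 to 16258322 came closest with 17. In at least 14 it was met by 10 higher members, that tile included, and 5 lower ones. A higher member on chromosome 5 from 144425360 to 144426812, chosen after its values were seen, met it in 16. Its IP difference was 0.27 and was 0.21 without cadmium replicate 2, with 5 of 7 probes upward and groups that overlapped. A single probe differed by 1.13, and 0.12 was left without it. With any 1 array left out, 5 higher members and 1 lower member met the rule in each of the 6 cases.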
